A study of Mus musculus with 8 samples.

Results

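The genes described here are 8 fatty acid desaturases and elongases, Scd1, Scd2, Fads1, Fads2, Elovl1, Elovl5, Elovl6 and Elovl7, taken as listed by symbol from the 18846 gene symbols measured in mouse adrenal glands. All 8 had reads in every library and passed the filter on low counts, as did 15361 genes in all. Desaturases place double bonds in fatty acids that are bound to coenzyme A, and elongases of the ELOVL family carry out the first, condensing step of the cycle that lengthens such chains in the endoplasmic reticulum. Stearoyl-CoA desaturases make monounsaturated fatty acids, whereas FADS enzymes and ELOVL5 act on polyunsaturated chains such as those that lead to arachidonic acid. In the adrenal cortex, acyl chains of this kind are esterified to the cholesterol that is stored as precursor for steroid hormones.

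Messenger RNA was sequenced from 8 glands, 1 per animal, of strain 129SVEV. There were 2 knockout (KO, Siah1a -/-) animals that received adrenocorticotropic hormone (ACTH), 2 untreated KO animals, 2 wild-type (WT) animals that received ACTH and 2 untreated WT animals, and each pair held 1 animal labelled male and 1 labelled female. ACTH, the pituitary hormone that drives glucocorticoid synthesis in the cortex, was given intraperitoneally at 100 µg/kg, 1 hour before the glands were taken. Siah1a encodes an E3 ubiquitin ligase, the knockout is labelled as a homozygous loss with no tissue-specific driver named, and no age of the animals is given in the labels. No group was labelled as injected with vehicle, so ACTH and the injection itself cannot be told apart. The comparisons are KO against WT, ACTH against untreated, each of these within the other factor, and their interaction.

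Total estimated counts ran from 8020111 to 29568950 per library, so that 3 counts correspond to 0.115 to 0.353 CPM (counts scaled to library size). Siah1a itself averaged 20.7 ± 3.38 CPM in KO glands and 29.5 ± 3.78 CPM in WT glands (SD, n = 4 each), with no overlap between the genotypes. Cortex markers summed to 42070 to 59441 CPM in KO libraries and 28377 to 47636 CPM in WT libraries, led by Star. Medulla markers summed to 1809 to 7407 CPM in KO and 2026 to 4020 CPM in WT libraries. Among untreated glands they did not overlap, at 7407 and 6053 CPM in KO and 2026 and 2792 CPM in WT, and their part in the results was not tested. The library labelled untreated WT male went against its sex label, with 388 CPM of Xist and 3.06 CPM of the Y-linked gene Ddx3y. Its label was kept for the matched pairs and for the sex term of the fits. KO libraries held at most 8.69 CPM of 8 kidney markers, and that WT library held 2018 CPM. KO libraries held at most 1187 CPM of 8 liver markers, and the ACTH-treated WT female library held 67159 CPM. Fitted fold changes of the members are given with all libraries and without these 2 WT libraries. The WT glands then left are an untreated female and an ACTH-treated male, so that treatment and sex label coincide among them. In fits with the interaction the sex term then comes from KO glands alone. In bulk tissue, fewer cells of a type and less mRNA per cell cannot be told apart.

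Scd1 and Scd2 share part of their coding sequence, which bears on how reads of 75 bases could be assigned between them. The longest identical run, 147 bases, lies at coding bases 523 to 669 of Scd1 and 532 to 678 of Scd2. It is shown here as in the GRCm38 transcripts, with 24 bases on each side and with the bases that differ in capitals.
Scd1: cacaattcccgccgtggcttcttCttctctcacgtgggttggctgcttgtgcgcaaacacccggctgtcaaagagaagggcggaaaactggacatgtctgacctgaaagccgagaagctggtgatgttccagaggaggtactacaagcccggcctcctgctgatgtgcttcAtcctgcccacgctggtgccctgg
Scd2: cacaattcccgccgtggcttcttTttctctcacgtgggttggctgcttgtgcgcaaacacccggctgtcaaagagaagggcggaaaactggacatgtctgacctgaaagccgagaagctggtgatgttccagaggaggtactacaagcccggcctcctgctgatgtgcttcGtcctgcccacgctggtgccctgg
Of the 991 windows of 75 bases in the Scd1 coding sequence, 79 (7.97%) occur in that of Scd2. Over whole transcripts, 3.15% of the Scd1 windows and 1.78% of the Scd2 windows occur in another gene of the family, and none of those of the Fads and Elovl members do. A read wholly inside the shared run cannot be told apart between the genes, and how such reads were handled is not given in the labels or file headers.

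Compared per length, as RPKM (reads per kilobase of transcript, scaled to library size) averaged over the 8 libraries, Scd1 had the highest mean at 354 RPKM, followed by Fads2 at 315 and Elovl5 at 216 RPKM. Fads1 averaged 153 RPKM and Scd2 130.3 RPKM. Elovl1 at 26.7 and Elovl6 at 19.6 RPKM were next, and Elovl7 was lowest at 2.56 RPKM. The first place of Scd1 came from WT glands, where it averaged 586 RPKM and reached 1358 RPKM in 1 library. In KO glands it averaged 122 RPKM, below Fads2 at 345, Elovl5 at 175, Scd2 at 135 and Fads1 at 129 RPKM. Its median over the 8 libraries, 208 RPKM, was likewise below the medians of Fads2 (294) and Elovl5 (219.6). The ranges of neighbours in this order overlapped, with 2 exceptions. The lowest library of Scd2, at 85.2 RPKM, exceeded the highest of Elovl1, at 31.4 RPKM. Elovl7 likewise lay below Elovl6 in every library, between 1.34 and 5.44 RPKM against 8.55 to 40.2 RPKM. Scd1 varied most by far, 40.7-fold between its lowest and highest library, and Elovl1 least, 1.59-fold. The other 6 members varied between 1.95-fold and 4.71-fold.

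**Figure D1:**
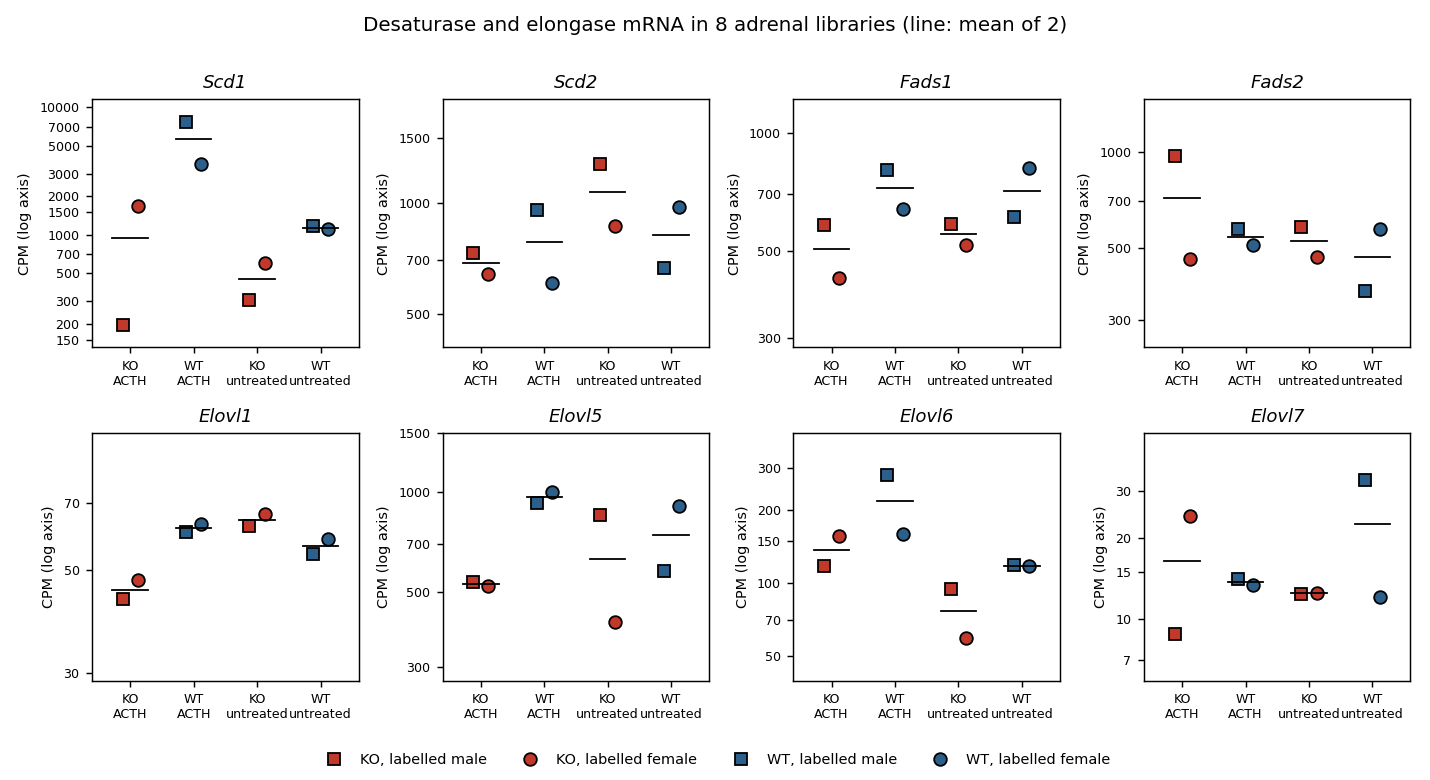
CPM of the 8 genes (log axes) in KO ACTH, WT ACTH, KO untreated and WT untreated glands, 1 point per library with the sex label as symbol and a line at the mean of 2. Scd1 spans 196 to 7689 CPM, whereas Elovl1 stays between 43.3 and 66.1 CPM.

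Averaged over treatment, no member passed the test for a difference between KO and WT glands. The values were lower in KO than in WT glands for Scd1, Fads1 and Elovl6 in all 4 pairs of animals matched for treatment and sex label, and 1958 of all genes tested (12.7%) also lay lower in all 4. Scd1 had the largest difference, with a mean of 693 ± 674 CPM in KO glands and 3389.5 ± 3092 CPM in WT glands (SD, n = 4 each). By edgeR's quasi-likelihood test the adjusted p of the 8 members ran from 0.243 to 0.908, against 4 genes called of 15361 (0.026%). At an unadjusted p under 0.05, 3 members lay lower and none higher, beside 8.11% of all genes lower and 5.33% higher. The median log2 fold change of the 8 was -0.37, against -0.04 over all genes. DESeq2 and limma-voom also called no member, beside 6.41% and 0.703% of all genes.

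**Figure D2:**
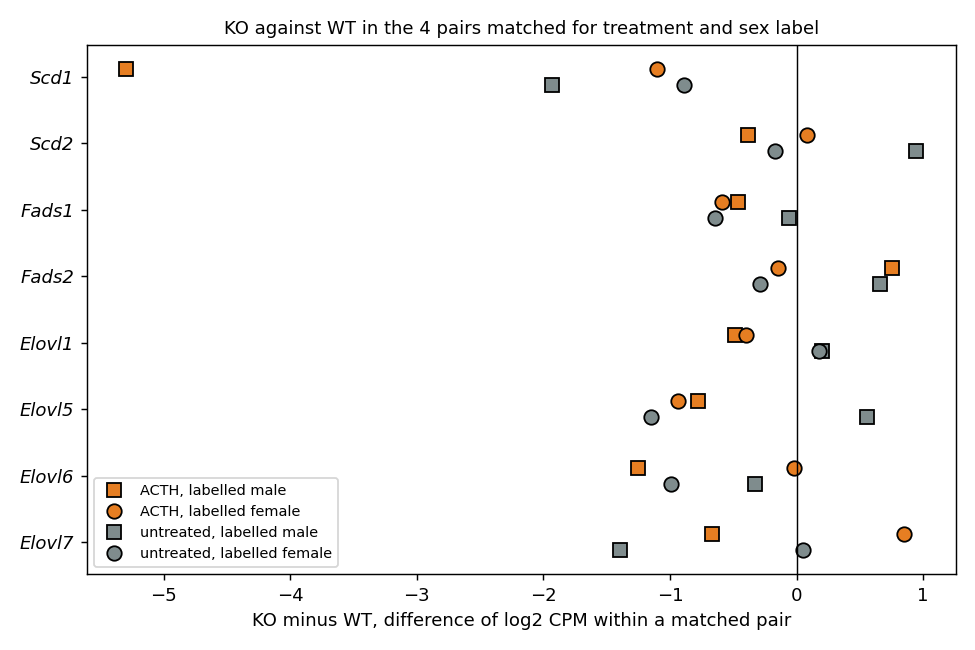
KO minus WT differences of log2 CPM for the 8 genes in the 4 pairs of animals that share treatment and sex label. Scd1, Fads1 and Elovl6 lie below 0 in all 4 pairs, and Elovl1 lies above 0 in both untreated pairs and below 0 in both ACTH pairs.

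Averaged over genotype, no member passed the test for a difference between ACTH-treated and untreated glands. Elovl6, whose product lengthens palmitate to stearate, lay higher after ACTH in all 4 matched pairs, as did 8.14% of all genes. Scd1 averaged 3288 ± 3247 CPM in ACTH-treated and 794 ± 413 CPM in untreated glands (SD, n = 4 each), with overlapping values. The adjusted p of the members ran from 0.644 to 0.986 by edgeR's quasi-likelihood test, which called 3 of all genes (0.0195%). At an unadjusted p under 0.05, Elovl6 and Scd1 lay higher, beside 3.49% of all genes, and none lay lower, beside 2.62%. Of the members DESeq2 called Elovl6 alone (log2 fold change 0.87, adjusted p = 0.0291), beside 123 of all genes (0.801%), and limma-voom called none of the members and 0.0195% of all genes. Both averages share all 8 libraries.

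Scd1 encodes the main stearoyl-CoA desaturase of mouse liver and fat, which converts stearoyl- and palmitoyl-CoA to oleoyl- and palmitoleoyl-CoA. The gene lies on the minus strand of chromosome 19 at 44394455 to 44407879 (mm10), and its levels rest on 2753 to 188330 estimated counts per library. It had 196 CPM in the ACTH-treated KO male, 1671 in the ACTH-treated KO female, 305 in the untreated KO male and 599.8 in the untreated KO female. The levels in WT glands were 7689 CPM in the ACTH-treated male, 3596 in the ACTH-treated female, 1162 in the library labelled untreated male and 1111 in the untreated female. The genotypes overlapped through the ACTH-treated KO female, which exceeded both untreated WT libraries, whereas each KO library lay below its own WT partner.

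The difference of log2 CPM for Scd1, KO minus WT, was -5.29 in the ACTH males and -1.11 in the ACTH females. It was -1.93 in the untreated pair labelled male and -0.89 in the untreated females. On average the log2 fold change was -2.14 (SE 0.69, unadjusted p = 0.0148, adjusted p = 0.243, edgeR's quasi-likelihood test). Without the ACTH-treated KO male, the lowest library, it was -1.46, and without the 2 WT libraries that held kidney or liver transcripts it was -2.58. Within ACTH-treated glands it was -2.99 (SE 0.97, adjusted p = 0.546), where the test called 1 gene of 15361 (0.00651%). With those 2 WT libraries left out it was -4.68, but this sets 2 KO glands against the 1 remaining WT gland, a male. The sex term of that fit comes from KO glands alone, and the value depends on it. With 1 library left out at a time the value after ACTH ran from -4.88, without the ACTH-treated KO female, to -1.73, without the ACTH-treated KO male, and none of these passed. In untreated glands the log2 fold change was -1.45 (SE 0.86, adjusted p = 0.892) with all libraries and -0.27 without the 2 WT libraries. The latter value depends on the sex term from KO glands as well. Both untreated KO glands (305 and 599.8 CPM) still lay below the untreated WT female that is left (1111 CPM).

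ACTH-treated and untreated glands came from separate animals. Among KO glands the Scd1 difference, ACTH minus untreated, was -0.64 on the log2 scale between the males and 1.48 between the females. In WT glands both differences were above 0, at 2.73 in the pair labelled male and 1.69 in the females. The untreated library of the former pair went against its sex label. The fitted log2 fold change of ACTH against untreated was 0.87 (SE 0.86) in KO and 2.42 (SE 0.88) in WT glands, with an adjusted p of 1.0 for each by edgeR's quasi-likelihood test. The interaction was -1.55 (SE 1.22, unadjusted p = 0.247, adjusted p = 1.0), so that a difference of the ACTH response between genotypes was not shown. Without the ACTH-treated WT male the value in WT glands was 0.86 and the interaction -0.18, and without the ACTH-treated KO male the interaction was -0.41. Without the 2 WT libraries with kidney or liver transcripts, the values were 0.42 in KO and 4.83 in WT glands, with an interaction of -4.41. This leaves 1 WT gland per treatment, an untreated female and an ACTH-treated male. The sex term of that fit comes from KO glands alone, and the WT value and the interaction depend on it. The average over genotype was 1.66 (SE 0.65, adjusted p = 0.761), and 1.69 without the 2 WT libraries with kidney or liver transcripts. In the 3 comparisons within a genotype or between responses, edgeR called no gene, and DESeq2 called 98 in KO, 37 in WT and 8 in the interaction, no member among them.

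Adipocytes express Scd1 strongly, and fat adheres to the adrenal capsule. The summed level of 14 adipocyte markers was 3014 CPM in the ACTH-treated KO male, 8878 in the ACTH-treated KO female, 3875 in the untreated KO male and 2930 in the untreated KO female. In WT glands it was 8803 CPM in the ACTH-treated male, 5888 in the ACTH-treated female, 6995 in the library labelled untreated male and 3173 in the untreated female. The markers were thus highest in the library with the most Scd1 among KO glands and likewise among WT glands, while the ranges of the genotypes overlapped, at 2930 to 8878 CPM in KO and 3173 to 8803 CPM in WT. Fabp4 was the most abundant of the 14 except in the library labelled untreated WT male, where Pck1, which kidney and liver also express, led with 2159 CPM. Leaving out Pck1, a choice made after the values were seen, gave sums of 2762 to 7685 CPM in KO and 2839 to 7842 CPM in WT glands, with 4836 CPM in that library. The part of the markers in the Scd1 values was not tested.

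**Figure D3:**
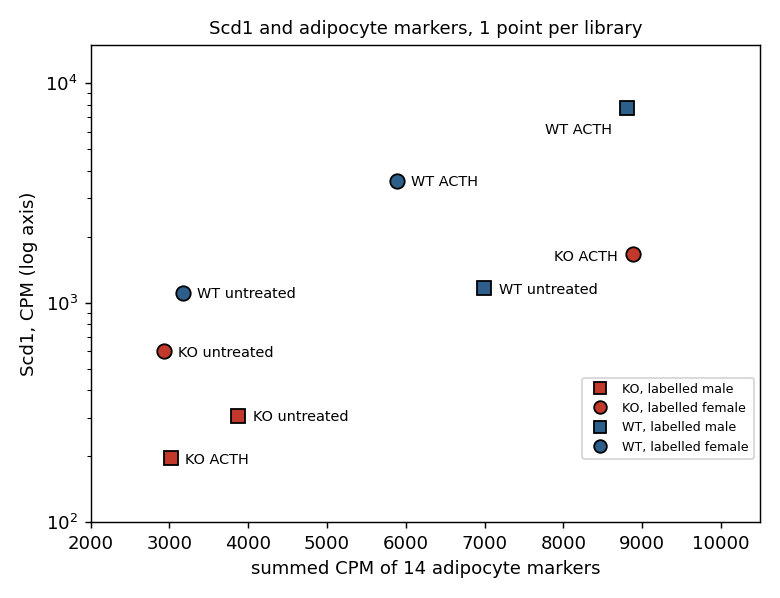
Scd1 (CPM, log axis) against the summed CPM of 14 adipocyte markers, 1 point per library with genotype by colour, the sex label by symbol and the group written beside it. The markers span 2930 to 8878 CPM in KO and 3173 to 8803 CPM in WT libraries, and the library labelled untreated WT male has 6995 CPM of the markers, 2159 CPM of them from Pck1, and 1162 CPM of Scd1.

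Scd2, the isoform that predominates in mouse brain, catalyses the same reaction and lies 87590 bases from Scd1 on chromosome 19, on the plus strand at 44293674 to 44306864. It had 733 CPM in the ACTH-treated KO male, 641 in the ACTH-treated KO female, 1279 in the untreated KO male and 864 in the untreated KO female. WT glands held 956 CPM in the ACTH-treated male, 607 in the ACTH-treated female, 665 in the library labelled untreated male and 975 in the untreated female. The 2 genotypes overlapped almost wholly, with a log2 fold change, KO against WT, of 0.09 (SE 0.23, adjusted p = 0.908, edgeR's quasi-likelihood test). Its sign was the opposite, at -0.19, without the 2 WT libraries with kidney or liver transcripts. ACTH against untreated gave -0.37 (SE 0.23, adjusted p = 0.863), and -0.56 without them.

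The ratio of Scd1 to Scd2 counts therefore followed Scd1. It was 0.267 and 2.61 in the ACTH-treated KO male and female and 0.238 and 0.694 in the untreated KO male and female. In WT glands it was 8.05 and 5.93 in the ACTH-treated male and female, 1.75 in the library labelled untreated male and 1.14 in the untreated female. Each KO library lay below its WT partner, and the genotypes overlapped through the ACTH-treated KO female. Of the minor family members, Scd3 reached at most 2.30 CPM and Scd4 at most 2.28 CPM in any library.

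Fads1 encodes the delta-5 desaturase, the step that yields arachidonic and eicosapentaenoic acid, and lies on the plus strand of chromosome 19 at 10182888 to 10196877. It had 585 CPM in the ACTH-treated KO male, 427 in the ACTH-treated KO female, 586 in the untreated KO male and 519 in the untreated KO female. In WT glands it had 807 CPM in the ACTH-treated male, 642 in the ACTH-treated female, 612 in the library labelled untreated male and 813 in the untreated female. Fads1 was the one member for which all 4 KO libraries lay below all 4 WT libraries, as they did for 4.71% of all genes. The gap was narrow, since the highest KO library had 586 CPM and the lowest WT library 612 CPM. Means were 529 ± 74.9 CPM in KO and 719 ± 107 CPM in WT glands (SD, n = 4 each). The log2 fold change was -0.45 (SE 0.17, unadjusted p = 0.0295, adjusted p = 0.305, edgeR's quasi-likelihood test), and -0.63 without the 2 WT libraries. With ACTH the log2 fold change was -0.06 (SE 0.17, adjusted p = 0.979), and -0.19 without them.

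Fads2 encodes the delta-6 desaturase that acts before FADS1 on linoleic and linolenic acid. The genes lie head to head, with Fads2 on the minus strand at 10062765 to 10101746 and 81141 bases between them. Fads2 had 969.8 CPM in the ACTH-treated KO male, 464 in the ACTH-treated KO female, 584 in the untreated KO male and 469.5 in the untreated KO female. The levels in WT glands were 576 CPM in the ACTH-treated male, 513 in the ACTH-treated female, 369.6 in the library labelled untreated male and 574 in the untreated female. The genotypes overlapped, with a log2 fold change, KO against WT, of 0.24 (SE 0.25, adjusted p = 0.732, edgeR's quasi-likelihood test), and of 0.04 without the 2 WT libraries. ACTH against untreated gave 0.30 (SE 0.25, adjusted p = 0.908), and 0.11 without them.

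The ACTH-treated KO male stood apart for Fads2, and for its neighbour Fads3, a related desaturase that acts on sphingoid bases and whose end faces that of Fads2 at a distance of 2654 bases. Fads3 had 97.1 CPM in that library and between 13.2 and 30.0 CPM in the other 7. Whether reads that run past the end of one gene entered the other was not tested.

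The ratio of Fads1 to Fads2 counts, examined after the values of both genes had been seen, did not overlap between genotypes. In KO glands it was 0.603 and 0.921 in the ACTH-treated male and female, and 1.00 and 1.11 in the untreated male and female. In WT glands it was 1.40 and 1.25 in the ACTH-treated male and female, 1.66 in the library labelled untreated male and 1.42 in the untreated female. Means were 0.908 ± 0.217 in KO and 1.43 ± 0.167 in WT glands (SD, n = 4 each), given as a description with no test. Per length the ratio lay between 0.263 and 0.482 in KO and between 0.546 and 0.722 in WT glands, so that Fads2 exceeded Fads1 in every library on that scale. The other count ratios computed overlapped between genotypes, Scd1 over Scd2 as given above. Elovl6 over Elovl5 was 0.11 to 0.301 in KO and 0.13 to 0.303 in WT glands. Fads2 over Fads3 was 9.99 to 35.2 in KO and 19.05 to 32.6 in WT glands. How often ratios of other gene pairs separate the genotypes was not examined.

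**Figure D4:**
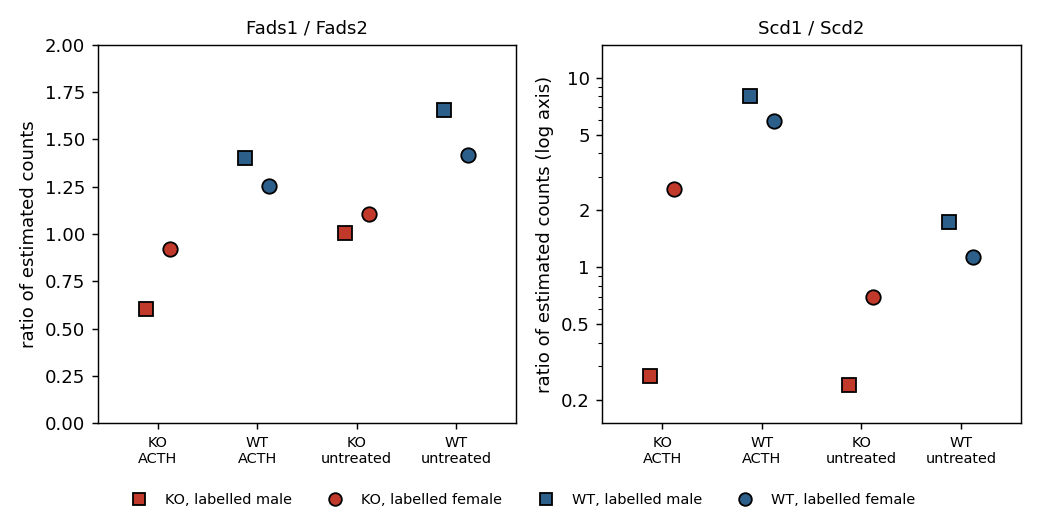
Ratios of estimated counts, Fads1 over Fads2 and Scd1 over Scd2 (log axis), in KO ACTH, WT ACTH, KO untreated and WT untreated glands, 1 point per library with the sex label as symbol. Fads1 over Fads2 lies between 0.603 and 1.11 in KO and between 1.25 and 1.66 in WT libraries.

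Elovl6 encodes the elongase that extends palmitoyl-CoA by 2 carbons and so feeds stearoyl-CoA to SCD1. It lies on the plus strand of chromosome 3 at 129532355 to 129638495. In KO glands Elovl6 had 117 CPM in the ACTH-treated male, 157 in the ACTH-treated female, 94.9 in the untreated male and 59.1 in the untreated female. WT glands held 280.2 CPM in the ACTH-treated male, 159 in the ACTH-treated female, 119 in the library labelled untreated male and 118 in the untreated female. Each ACTH library exceeded the untreated library of its genotype and sex label, and each KO library lay below its WT partner, although the ACTH females differed by -0.02 on the log2 scale.

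Averaged over genotype, Elovl6 had 178 ± 70.5 CPM in ACTH-treated and 97.6 ± 27.98 CPM in untreated glands (SD, n = 4 each). That is a log2 fold change of 0.87 (SE 0.22, unadjusted p = 0.00394, adjusted p = 0.644, edgeR's quasi-likelihood test). The fitted change was 0.88 (SE 0.33, adjusted p = 0.999) in KO and 0.86 (SE 0.33, adjusted p = 1.0) in WT glands. Without the 2 WT libraries it was 0.93 on average, 0.86 in KO and 1.12 in WT glands. The 4 ACTH and 4 untreated libraries overlapped by a small margin, with the ACTH-treated KO male at 117 CPM beside untreated WT glands at 118 and 119 CPM. For KO against WT the log2 fold change was -0.64 (SE 0.22, unadjusted p = 0.0184, adjusted p = 0.261), and -0.83 without the 2 WT libraries.

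Elovl5, which lengthens the polyunsaturated products of FADS2, lies on the plus strand of chromosome 9 at 77917364 to 77984519. It had 539 CPM in the ACTH-treated KO male, 521 in the ACTH-treated KO female, 851 in the untreated KO male and 409 in the untreated KO female. In WT glands it had 925 CPM in the ACTH-treated male, 1000.2 in the ACTH-treated female, 578 in the library labelled untreated male and 909 in the untreated female. In the ACTH pairs the difference of log2 CPM, KO minus WT, was -0.78 in the males and -0.94 in the females. The fitted log2 fold change after ACTH was -0.86 (SE 0.39, adjusted p = 0.622, edgeR's quasi-likelihood test). The untreated pairs differed in direction, at 0.56 in the pair labelled male and -1.15 in the females on the log2 scale. The average log2 fold change, KO against WT, was -0.57 (SE 0.28, unadjusted p = 0.0757, adjusted p = 0.429, edgeR's quasi-likelihood test), and -0.70 without the 2 WT libraries. ACTH against untreated gave 0.07 (SE 0.27, adjusted p = 0.986), and -0.26 without them.

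The 250 bases before the RefSeq start of Elovl6 and of Elovl5 are given because these genes encode the elongases of the saturated and of the polyunsaturated branch. They were read from RefSeq on GRCm38.p6, at chr3:129532136-129532385 and chr9:77917115-77917364, each on the plus strand, 5′ to 3′. The starts differ from those of GENCODE given above. The Elovl6 window runs past the GENCODE start of that gene (129532355), and the Elovl5 window ends on its GENCODE start (77917364). Capitals mark the motifs found.
Elovl6: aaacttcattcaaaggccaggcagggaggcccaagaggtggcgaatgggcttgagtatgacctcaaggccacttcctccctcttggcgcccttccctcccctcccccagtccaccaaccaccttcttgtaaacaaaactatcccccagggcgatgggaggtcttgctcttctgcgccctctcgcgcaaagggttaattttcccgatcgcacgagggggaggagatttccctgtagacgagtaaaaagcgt
Elovl5: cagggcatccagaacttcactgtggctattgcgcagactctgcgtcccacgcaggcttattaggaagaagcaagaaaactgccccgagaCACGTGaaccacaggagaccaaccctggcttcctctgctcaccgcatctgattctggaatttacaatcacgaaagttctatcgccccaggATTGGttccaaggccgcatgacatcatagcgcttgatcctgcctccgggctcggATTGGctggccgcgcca
The motifs searched on both strands were the sterol regulatory element core TCACNCCAC, the CCAAT box and the E-box CACGTG, which do not overlap in these windows. They occur in 1.05%, 33.9% and 6.02% of 32851 mouse windows of the same length. Elovl5 held the E-box from base -161 and the CCAAT box, on the minus strand, from bases -71 and -17, counted from the start. Elovl1 held 1 CCAAT box, from base -35 in 1 of its 2 windows, and the windows of Elovl6, Elovl7 and Fads2 held none of these letters. RefSeq windows were matched for 5 of the 8 members, and those of Scd1, Scd2 and Fads1 were not used here.

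Elovl1, which lengthens saturated and monounsaturated very long chains, is on the plus strand of chromosome 4 at 118428093 to 118432953. It had 43.3 CPM in the ACTH-treated KO male, 47.6 in the ACTH-treated KO female, 62.3 in the untreated KO male and 66.1 in the untreated KO female. The levels in WT glands were 60.6 CPM in the ACTH-treated male, 62.95 in the ACTH-treated female, 54.3 in the library labelled untreated male and 58.5 in the untreated female. The 2 ACTH-treated KO glands were the lowest of the 8 and the 2 untreated KO glands were the first and the third highest. KO minus WT was 0.20 and 0.18 on the log2 scale in the untreated pairs labelled male and female, and -0.48 and -0.40 in the ACTH males and females. Elovl1 was the only member with this pattern of signs, which 4.41% of all genes showed. The interaction was -0.63 (SE 0.31, unadjusted p = 0.0812, adjusted p = 1.0, edgeR's quasi-likelihood test). Within treatments the log2 fold change was -0.44 (SE 0.22, adjusted p = 0.652) after ACTH and 0.19 (SE 0.22, adjusted p = 0.898) in untreated glands, and the averages were -0.13 (SE 0.18, adjusted p = 0.803) for KO and -0.18 (SE 0.18, adjusted p = 0.929) for ACTH. Without the 2 WT libraries the interaction was -0.66, the values within treatments -0.48 after ACTH and 0.18 untreated, and the averages -0.15 for KO and -0.33 for ACTH.

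Elovl1 was the one member counted on several RefSeq transcripts, and its makeup differed in 1 library. NM_001039175 took 48.8% of the gene's estimated counts in the ACTH-treated KO female, or 303 counts, and at most 1.22% in the other 7 libraries. NM_019422 held 28.03% in that library and 54.0% to 80.5% elsewhere, and NM_001039176 held 23.2% there and 19.5% to 45.3% elsewhere. The sum over transcripts in that library, 47.6 CPM, was close to the 43.3 CPM of the other ACTH-treated KO gland, which had 0.038% of NM_001039175. The division of reads among transcripts was estimated by the authors.

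**Figure D5:**
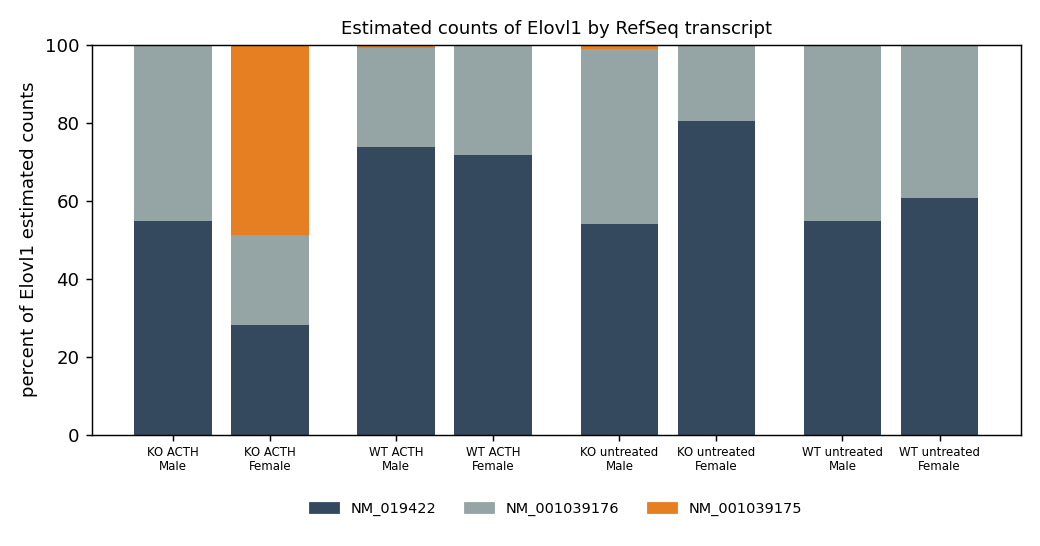
Percent of the Elovl1 estimated counts assigned to each of its 3 RefSeq transcripts, 1 bar per library. NM_001039175 holds 48.8% in the ACTH-treated KO female and at most 1.22% in each of the other 7.

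Elovl7, an elongase of saturated and polyunsaturated long chains, lies on the plus strand of chromosome 13 at 108214404 to 108285683 and was the rarest member, with 124 to 350 counts per library. In KO glands it had 8.82 CPM in the ACTH-treated male, 24.1 in the ACTH-treated female, 12.4 in the untreated male and 12.5 in the untreated female. WT glands held 14.1 CPM in the ACTH-treated male, 13.4 in the ACTH-treated female, 32.9 in the library labelled untreated male and 12.1 in the untreated female. Its highest library was that with 2018 CPM of kidney markers, whose part in the value was not tested. KO against WT gave a log2 fold change of -0.29 (SE 0.51, adjusted p = 0.849, edgeR's quasi-likelihood test) and ACTH against untreated -0.15 (SE 0.50, adjusted p = 0.983). Without the 2 WT libraries the signs were the opposite, at 0.08 and 0.44.

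No member was called by edgeR's quasi-likelihood test within either treatment, within either genotype or in the interaction, and none was called by DESeq2 or limma-voom. At an unadjusted p under 0.05 there was 1 member, Scd1, lower in KO after ACTH (beside 5.42% of all genes) and none between untreated glands (4.84% of all genes in either direction). For ACTH against untreated there was 1 higher in KO glands, Elovl6 (1.96% of all genes), and 2 in WT glands, Scd1 and Elovl6 (1.97%). None passed unadjusted in the interaction (1.84%). These comparisons share libraries, since each of the 4 groups enters more than 1 of them.

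The list of fatty acid synthesis genes had the lowest median of the 5 lists in KO against WT glands. This pathway makes the saturated chains on which SCD1 and ELOVL6 act. Of 9 genes of fatty acid synthesis, none passed the adjusted test for KO against WT, 7 lay lower at an unadjusted p under 0.05 (beside 8.11% of all genes, as for the lists that follow), and the median log2 fold change was -1.47 against -0.04 over all genes. The 2 most abundant differed: Acly, which makes cytosolic acetyl-CoA, averaged 2226 ± 342 CPM in KO and 2234 ± 643 CPM in WT glands, and Me1, a source of NADPH, 2483 ± 738 CPM in KO and 3514 ± 232 CPM in WT glands (SD, n = 4 each). Fasn, the fatty acid synthase, chosen after its values were seen, had the lowest adjusted p of the list (0.0723, edgeR's quasi-likelihood test), with 107 ± 37.5 CPM in KO and 1773 ± 1447 CPM in WT glands and no overlap. DESeq2 called 6 of the 9 lower in KO glands (Acaca, Acacb, Acss2, Fasn, Slc25a1 and Thrsp), and limma-voom called 4 of them (Acaca, Acss2, Fasn and Slc25a1). Over all genes these tools called 6.41% and 0.703%, here and for the lists that follow. The 4 that limma-voom called were also called by edgeR without the filter on low counts, beside 41 of all genes. With matched pairs as a replicate block edgeR called the same 4, beside 69 of all genes. Without the 2 WT libraries with kidney or liver transcripts edgeR called none of the 9, as in the main fit on all 8 libraries.

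Of 9 other elongases and enzymes of the elongation cycle, none was called and 3, Elovl2, Hacd2 and Tecr, lay lower in KO at an unadjusted p under 0.05. These 3, and the other genes given by their unadjusted p, were named after their values were seen. Elovl2, a liver elongase, had 420 CPM in the ACTH-treated WT female, the library with liver transcripts, and at most 25.6 CPM in the other 7. The list's median was -0.37, and -0.08 without the 2 WT libraries, and DESeq2 and limma-voom called none of it. The abundant 3-hydroxyacyl-CoA dehydratase Hacd3 had 509 ± 44.0 CPM in KO and 499 ± 90.3 CPM in WT glands, and the ketoreductase Hsd17b12 191 ± 17.1 CPM in KO and 186 ± 41.6 CPM in WT glands (SD, n = 4 each). The ranges of these last 2 genes overlapped between the genotypes.

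Among 5 tested of 6 other desaturases, none was called, 1 (Fads6) lay lower at an unadjusted p under 0.05, and the median was -0.18, or -0.88 without the ACTH-treated KO male. DESeq2 called Fads6, and limma-voom called none. Degs1, the dihydroceramide desaturase, averaged 103 ± 15.7 CPM in KO and 116 ± 9.84 CPM in WT glands (SD, n = 4 each). Of 12 SREBP, LXR and PPAR regulators none was called, 4 lay lower at an unadjusted p under 0.05 (Insig1, Mlxipl, Ppara and Nr1h3), and the median was -0.43. DESeq2 called Insig1 and Mlxipl, and limma-voom called Insig1. Insig1, an SREBP target that retains SCAP in the endoplasmic reticulum, averaged 99.2 ± 27.4 CPM in KO and 236 ± 92.6 CPM in WT glands, and Mbtps1, the protease that cleaves SREBP, 107 ± 14.9 CPM in KO and 117 ± 16.1 CPM in WT glands (SD, n = 4 each).

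Of 14 acyl-CoA synthetases and esterification enzymes none was called, and 4 lay lower at an unadjusted p under 0.05 (Gpam, Acsl1, Acsl5 and Dgat2), with a median of -0.44. DESeq2 called Acsl1 and Gpam, limma-voom called Gpam, and so did edgeR with the replicate block. Acsl1, which activates long chains for fat storage and oxidation, averaged 223 ± 144 CPM in KO and 559 ± 177 CPM in WT glands. Acsl4, which prefers arachidonate and is abundant in steroid-making cells, averaged 1414 ± 308 CPM in KO and 1076 ± 177 CPM in WT glands (SD, n = 4 each). For ACTH against untreated none of the 5 lists had a gene called by edgeR, DESeq2 or limma-voom. At an unadjusted p under 0.05 edgeR placed Acacb and Fasn (2 of fatty acid synthesis) and Dgat1 (1 of the acyl-CoA enzymes) higher. It placed Mid1ip1, Mbtps2 and Gpam (1 each of 3 lists) lower. Over all genes 3.49% lay higher and 2.62% lower at that threshold. The medians were 0.42 for other desaturases, 0.26 for the elongation cycle, 0.40 for fatty acid synthesis, 0.11 for the regulators and 0.09 for the acyl-CoA enzymes, against 0.02 over all genes.

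Over the 8 libraries, the genes whose log2 CPM ran most nearly parallel to Scd1 were Acacb, the acetyl-CoA carboxylase bound to mitochondria (Pearson r = 0.98), Hadha (0.98) and Dpt (0.96), among 12337 genes searched. For Fads1 they were Xdh (0.97), Prkaca (0.96) and Dpp7 (0.95), and for Elovl6 Hps4 (0.97), Nup98 (0.95) and Sh2b2 (0.94). The closest gene was Kbtbd4 for Scd2 (0.97), Riok3 for Fads2 (0.98), Usp21 for Elovl1 (0.995), Pcyt1a for Elovl5 (0.94) and Mrpl13 for Elovl7 (0.98). With so many genes searched over 8 libraries, which also share genotype and treatment, these values are a description only.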

How the data were processed

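Adrenal mRNA libraries of 8 mice were analysed. The submitters' processing notes name FastQC 0.11, TopHat2 2.0.13, Bowtie2 2.2.5.0, Partek 6.6 and mm10, without order or settings. For each of 28678 RefSeq transcripts the authors deposited an estimated count beside its RPKM value, as the file headers name them. Here the estimated counts were summed per symbol (18846 genes) and rounded to whole numbers. Totals ran from 8020111 to 29568950, and floors cover counting error only. Groups and sex came from the labels.

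Genes were kept by filterByExpr (minimum count 10), leaving 15361 and removing 3485, and scaled by TMM factors (0.888 to 1.06). They were tested with edgeR's quasi-likelihood test (edgeR 4.0.16, R 4.3.3) on all 8 libraries. The model had genotype, treatment and sex label (4 residual degrees of freedom) for averages, and added the interaction (3 residual degrees of freedom) for the other comparisons. P-values were adjusted by Benjamini-Hochberg over all genes kept and called under 0.05. The SE printed with an edgeR log2 fold change was derived from the test. It is the absolute log2 fold change divided by the square root of the F statistic. The RPKM values served for levels compared between genes and for limma alternatives (limma 3.58.1; DESeq2 1.42.0 was a further alternative). Single-library log2 CPM has a prior count of 2 in the correlations.

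Named genes were the 8 members, the 2 most abundant genes of each pathway list with any called, the top gene of each marker list, and the 3 genes most correlated with each member. The members and lists were chosen with earlier results of these data known. Gene positions are from GENCODE M21 on GRCm38 (mm10). Replicates were separate animals, and in no group did they agree within sampling noise (chi-square ratio at least 28.2). Replicate numbers followed accession order and paired no samples.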

Additional observations from a re-analysis of the deposited data

Results flagged for a closer look

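In each set of 4 libraries of a genotype or treatment, the gap between the most extreme library and its nearest neighbour was compared with the range (Dixon's test). Of 44 such sets of the members and the Elovl1 transcripts, 6 passed. A chance rate of about 1 in 20 holds for independent sets of normal values. These sets share libraries and the transcript shares depend on each other, so the count cannot be read against that rate. Elovl1 transcript NM_001039175 took 48.762% of the gene's estimated counts in the ACTH-treated KO female, far above the other 3 KO libraries and the other 3 ACTH libraries. The share also stood apart at 0.774% in the ACTH-treated WT male among WT libraries and at 1.22% in the untreated KO male among untreated libraries, each on about 11 estimated counts. Elovl7 had 32.9 CPM in the library labelled untreated WT male, apart from the other 3 WT libraries and from the other 3 untreated libraries. That library held 2018 CPM of kidney markers, and their part in the value was not tested.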

How the results depend on the processing

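No member was called for KO against WT on average under any setting run, and 3 lay lower at an unadjusted p under 0.05, between 1 and 4 with each library left out in turn (Scd1 alone without the untreated WT female, the untreated KO female or the ACTH-treated WT male). For ACTH against untreated the members called were 0, but 1 (Elovl6) by DESeq2. Those higher at an unadjusted p were 2, but 1 (Elovl6) with log2(RPKM + 1) or log2(RPKM + 0.1), and 1 to 2 with a library left out. After ACTH, KO against WT had 0 called with all libraries and with each library left out in turn. Without the 2 WT libraries with kidney or liver transcripts only 1 ACTH-treated WT gland is left, so for this comparison only effect sizes of that setting are given. The causes were not tested. The sign reversed without those 2 libraries for Scd2 (-0.19) and Elovl7 (0.081) in KO against WT and for Elovl5 (-0.26) and Elovl7 (0.44) in ACTH against untreated.

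With each library left out in turn, the log2 fold change of KO against WT ran from -0.15 to 0.29 for Scd2, from -0.001 to 0.48 for Fads2 and from -0.80 to 0.20 for Elovl7. That of ACTH against untreated ran from -0.215 to 0.059 for Fads1, from -0.14 to 0.44 for Elovl5 and from -0.65 to 0.35 for Elovl7, and that of Scd1 from -1.24 to 1.91 in KO and from 0.86 to 3.27 in WT glands, with an interaction from -3.56 to -0.18. Over all settings Scd1 in KO against WT ran from -2.69 to -1.46, Elovl6 from -0.85 to -0.49 and Fads1 from -0.63 to -0.33, and Elovl6 with ACTH from 0.68 to 1.02. With matched pairs as a replicate block the members called were 0 in both averages, and the same 3 and 2 members passed unadjusted. Pairs share labels only, not litters or days.

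Calls over all genes depended on the tool. KO against WT had 4 by edgeR, 947 by DESeq2, 108 by limma-voom, 41 without a filter, 69 with the replicate block, 1 and 7 on RPKM, 1 without the sex label and 0 to 253 with a library left out. ACTH against untreated had 3 by edgeR, 123 by DESeq2, 8 without a filter, 10 with the block and 0 to 23 with a library left out. With 2 animals a group, of unlike sex label, the printed SDs include sex. Each is over 4 libraries and pools 2 groups. SDs of a genotype therefore include treatment, and SDs of a treatment include genotype. The main fits took out an average difference between the sex labels. Depth was least for Elovl7, at 124 to 350 counts per library.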
